A study of Rattus norvegicus with 12 samples.

Results

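The cardiac identity transcription factors described here are Gata4, Gata6, Nkx2-5, Tbx5, Tbx20, Hand1, Hand2, Mef2a, Mef2c and Mef2d, chosen by gene symbol. Of these 10 genes, 9 were found among the 17312 gene symbols of every library, and Mef2c was not analysed here. The libraries were made from polyadenylated RNA of cultured neonatal rat ventricular cardiomyocytes of the Wistar strain. There were 4 groups of 3 libraries: cells given an siRNA against Wnt5a and stretched (stretched Wnt5a siRNA), cells given the same siRNA and not stretched (unstretched Wnt5a siRNA), cells given a control siRNA and stretched (stretched control), and cells given a control siRNA and not stretched (unstretched control). All groups had therefore been exposed to an siRNA. The sample titles carry the number 8 for stretched and 0 for unstretched cells with no unit or meaning stated, and no other length or strength of the stretch is used here. Nothing in the labels says that the libraries of a group came from separate cell preparations, so p-values measure only the spread between these libraries.

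GATA, NK-2, T-box, HAND and MEF2 proteins bind short DNA motifs upstream of heart muscle genes and often act in complexes with each other. They are needed for heart formation in the embryo and continue to drive contractile, ion channel and metabolic genes in heart muscle cells after birth. GATA4 and the MEF2 proteins are also known as endpoints of hypertrophic signalling, in which kinases export class IIa histone deacetylases from MEF2 target genes. Wnt5a is a secreted Wnt ligand.

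The promoters of the 4 genes that fell with stretch under control siRNA are printed to show what these genes hold just upstream. Each line gives the 250 bases before the gene start, 5′ to 3′, from RefSeq for the assembly GRCr8, which is not the build of the expression values (rn6). Capitals mark matches to motifs of the GATA, NKX2-5, T-box, MEF2, CArG and TEAD kinds.
Tbx5, chr12:42395360-42395609, minus strand: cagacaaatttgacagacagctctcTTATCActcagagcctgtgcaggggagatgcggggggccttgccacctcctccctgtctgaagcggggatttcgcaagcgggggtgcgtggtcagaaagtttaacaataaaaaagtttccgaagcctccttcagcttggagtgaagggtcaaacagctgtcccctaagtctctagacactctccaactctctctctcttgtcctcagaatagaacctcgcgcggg
Tbx20, chr8:31534010-31534259, minus strand: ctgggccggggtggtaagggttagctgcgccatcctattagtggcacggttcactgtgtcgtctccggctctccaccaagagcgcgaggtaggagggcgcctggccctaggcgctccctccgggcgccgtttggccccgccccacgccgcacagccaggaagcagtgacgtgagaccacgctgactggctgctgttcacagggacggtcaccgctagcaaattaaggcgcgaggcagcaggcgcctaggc
Mef2d, chr2:175904082-175904331, plus strand: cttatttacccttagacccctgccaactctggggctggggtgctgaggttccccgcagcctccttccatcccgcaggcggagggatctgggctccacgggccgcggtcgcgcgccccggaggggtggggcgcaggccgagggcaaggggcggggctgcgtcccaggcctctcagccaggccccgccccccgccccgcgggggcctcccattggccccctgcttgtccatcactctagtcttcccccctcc
Mef2a, chr1:130392163-130392412, minus strand: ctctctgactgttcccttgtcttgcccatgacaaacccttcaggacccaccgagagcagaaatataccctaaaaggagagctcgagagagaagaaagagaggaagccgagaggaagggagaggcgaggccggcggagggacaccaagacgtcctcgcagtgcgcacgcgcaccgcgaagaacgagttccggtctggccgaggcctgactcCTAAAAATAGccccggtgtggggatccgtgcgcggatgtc
The motifs searched, on both strands, were the GATA motif (the letters GATA with A or T before and A or G after), the NKX2-5 motif TNAAGTG, a T-box motif with the letters AGGTGT, the E-box with the letters CANNTG, a TEAD motif with the letters GGAATG, and the MEF2 motif and the CArG box of SRF. Promoters of 8 of the 9 listed factors were matched. In the Tbx5 promoter, the reverse strand of a GATA motif stood 225 to 220 bases before the start, and an E-box, left in lower case, stood 72 to 67 bases before it. In the Mef2a promoter a MEF2 motif stood 40 to 31 bases before the start. The Tbx20 and Mef2d windows held none of the motifs, and G and C made up 66.8% and 73.2% of them, against a median of 51.2% over all promoters. GATA motifs were found in 2 of the 8 promoters (Tbx5 and Hand2), against 27.0% of 33469 promoters of the same length. The MEF2 motif was found in 1 of 8 (Mef2a), against 2.96%, and the E-box in 3 of 8 (Tbx5, Hand2 and Nkx2-5), against 65.5%. The NKX2-5, T-box, CArG and TEAD motifs were found in none of the 8, against 9.89%, 11.6%, 1.5% and 12.1% of all promoters. None of the matches overlapped another, and a match describes the letters only.

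Values are FPKM, fragments scaled by transcript length and library size, which allow levels of different genes to be compared. The sum of FPKM was 619742 to 659933 in stretched and 575161 to 607276 in unstretched Wnt5a siRNA libraries, and 676014 to 709021 in stretched and 588509 to 598628 in unstretched control libraries. The depth in reads is unknown. Markers of ventricular cardiomyocytes were abundant in every library: Tnnt2 (cardiac troponin T) was at 3969 to 6329 FPKM and Myl2, the ventricular regulatory light chain, at 2651 to 4492 FPKM, whereas the atrial light chain Myl7 was at 25.0 to 230 FPKM. Wnt5a itself was at 6.22, 5.88 and 5.56 FPKM in stretched Wnt5a siRNA libraries, against 6.52, 5.66 and 8.22 FPKM in stretched control libraries, and these did not differ past the threshold (−0.17 ± 0.14 on the log2 scale, adjusted p = 0.3871). Without stretch it was at 6.15, 4.60 and 6.81 FPKM with Wnt5a siRNA, against 12.3, 10.4 and 11.6 FPKM with control siRNA, a fall to 51.2% (−0.87 ± 0.14, adjusted p = 0.0014). The difference between both comparisons was 0.70 ± 0.20 (adjusted p = 0.0244). It missed the threshold without unstretched control 1 or 3, stretched control 1, unstretched Wnt5a siRNA 2 or stretched Wnt5a siRNA 1 (0.0514 to 0.0559). The stretched control library numbered 3 stood apart from libraries 1 and 2 of its group: the SD of its log2 differences from them was 0.393 to 0.426, against 0.205 to 0.288 for the other pairs within groups. Calls of factors that change without it are given with and without it, as are several list counts.

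Changes are log2 differences of (FPKM + 1) with their standard error, tested with limma over the 10518 genes that reached 1 FPKM in at least 3 libraries, and called at a Benjamini-Hochberg adjusted p under 0.05. All 9 factors passed this filter. In stretched against unstretched control libraries 4 of the 9 were called, all of them lower: Tbx5, Mef2d, Tbx20 and Mef2a. With all 12 libraries, 54.3% of all genes tested were called in this comparison and 26.8% were called lower, so a share of this size is not particular to the factors. Without stretched control 3, Gata4 and Nkx2-5 were called higher and Tbx5, Mef2d and Tbx20 lower. In that fit 3075 of all 10518 genes were called higher and 2960 lower. In stretched against unstretched Wnt5a siRNA libraries 2 were called, Tbx5 and Mef2d, both lower, against 16.0% of all genes called and 7.59% called lower. In stretched Wnt5a siRNA against stretched control libraries Tbx20 was higher and Gata4 and Mef2d were lower, against 27.3% of all genes called, 13.2% higher and 14.2% lower. In unstretched Wnt5a siRNA against unstretched control libraries Tbx5, Mef2d and Mef2a were lower, against 28.5% called and 13.9% called lower. The interaction, the change with stretch under Wnt5a siRNA minus that under control siRNA, was called for Tbx5 and Tbx20, both positive, against 23.8% of all genes called and 11.7% called higher. These comparisons share libraries.

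**Figure D1:**
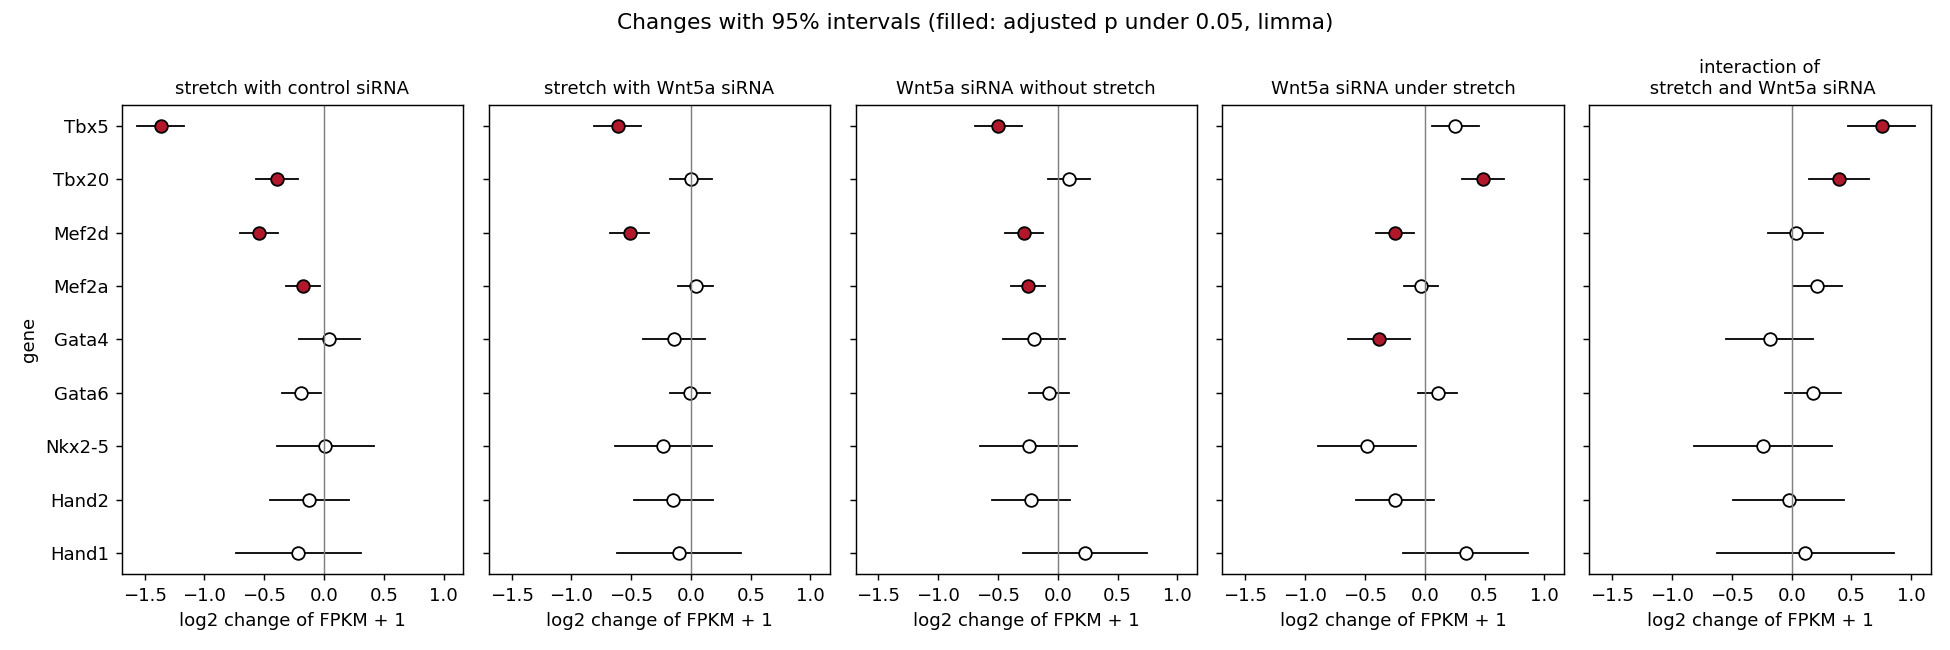
Log2 change of (FPKM + 1) of the 9 factors in the 4 comparisons and the interaction; points are estimates, bars are 95% confidence intervals, and filled points passed an adjusted p of 0.05 (limma). Tbx5 has the lowest change with stretch under both siRNAs, −1.36 with control siRNA and −0.61 with Wnt5a siRNA.

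The scale of the libraries bears on small changes. The median change of all genes was close to 0 in every comparison on the deposited scale (0.01 for stretch with control siRNA). After the values of each library were scaled to the same sum (TPM scaling), it was −0.19 for stretch with control siRNA, −0.12 for stretch with Wnt5a siRNA and 0.10 for Wnt5a siRNA under stretch. With that scaling 1451 genes were called higher and 4493 lower for stretch with control siRNA, against 2889 and 2822 on the deposited scale. For stretch with Wnt5a siRNA the counts were 502 higher and 1776 lower, against 888 and 798. For Wnt5a siRNA under stretch they were 2187 and 811, against 1386 and 1489, and for the interaction 1612 and 815, against 1226 and 1277. Among the factors, this scaling added Gata6 to those called lower with stretch under control siRNA (−0.41, adjusted p = 8.1e-04). For Wnt5a siRNA under stretch it gave 2 higher (Tbx20 and Tbx5) and none lower, against 1 higher and 2 lower on the deposited scale.

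Markers of other heart cells moved with the groups, and their part in the changes of the factors was not tested. Of all 10518 genes, 2889 were called higher and 2822 lower for stretch with control siRNA, and 888 and 798 for stretch with Wnt5a siRNA. For Wnt5a siRNA the counts were 1386 and 1489 under stretch and 1536 and 1466 without it. In stretched control libraries 8 of 11 fibroblast markers and 6 of 8 macrophage markers were called higher than in unstretched control libraries, and none lower. With TPM scaling 5 fibroblast markers were higher and 1 lower, and 3 macrophage markers were higher. Without stretched control 3 the counts were 8 higher and 1 lower, and 5 higher. Their summed levels were 4852 to 8407 FPKM in stretched against 3510 to 4017 FPKM in unstretched control libraries for fibroblast markers, and 251 to 415 against 127 to 165 FPKM for macrophage markers. In stretched Wnt5a siRNA libraries fibroblast markers summed to 8870 to 9490 FPKM, against 5277 to 5562 FPKM in unstretched ones, with 8 of 11 called higher and 1 lower. Macrophage markers summed to 287 to 327 against 117 to 124 FPKM, with 8 of 8 called higher, and 5 of 8 endothelial markers were called higher (45 to 77 against 14 to 32 FPKM). Cardiomyocyte markers summed to 22408 to 31093 FPKM in stretched and 23484 to 28145 FPKM in unstretched Wnt5a siRNA libraries, with 4 of 11 called lower and none higher. They summed to 32128 to 46557 FPKM in stretched and 32377 to 35151 FPKM in unstretched control libraries, with 4 of 11 called higher and 4 lower on the deposited scale and 1 higher and 6 lower with TPM scaling. Smooth muscle and pericyte markers summed to 3234 to 3730 FPKM in stretched Wnt5a siRNA libraries, below the 4333 to 6372 FPKM of unstretched Wnt5a siRNA libraries (2 of 8 called higher and 3 lower) and the 4135 to 7023 FPKM of stretched control libraries (2 higher and 4 lower). Macrophage markers summed to 117 to 124 FPKM in unstretched Wnt5a siRNA and 127 to 165 FPKM in unstretched control libraries, with 4 of 8 called lower and none higher. Col1a2, a defining fibroblast gene, is listed at 0 in all 12 libraries, where Col1a1 and other collagen genes are not. In cultures of mixed cells, fewer cells of a type and less RNA per cell cannot be told apart.

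Mean levels of the factors over the 12 libraries differed. Ranges of single libraries overlapped in part: Nkx2-5 went down to 49.8 and Mef2d up to 65.6 FPKM. Gata4, Mef2a, Tbx20 and Nkx2-5 averaged 97.6, 84.3, 83.8 and 68.7 FPKM, Mef2d, Hand2 and Gata6 averaged 49.6, 45.9 and 40.6 FPKM, and Tbx5 averaged 12.4 FPKM. Hand1 averaged 0.965 FPKM, close to the filter. The order differed between groups: Tbx20 was the highest of the 9 in both Wnt5a siRNA groups, and Gata4 was the highest in both control groups. In stretched Wnt5a siRNA libraries the neighbours Tbx20 and Gata4, Gata4 and Mef2a, Gata6 and Hand2, and Hand2 and Mef2d overlapped. In unstretched Wnt5a siRNA libraries Tbx20 and Gata4, and Hand2 and Gata6, overlapped. In stretched control libraries Gata4, Mef2a, Nkx2-5 and Tbx20 each overlapped the next, as did Hand2, Mef2d and Gata6. In unstretched control libraries no neighbours overlapped.

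**Figure D2:**
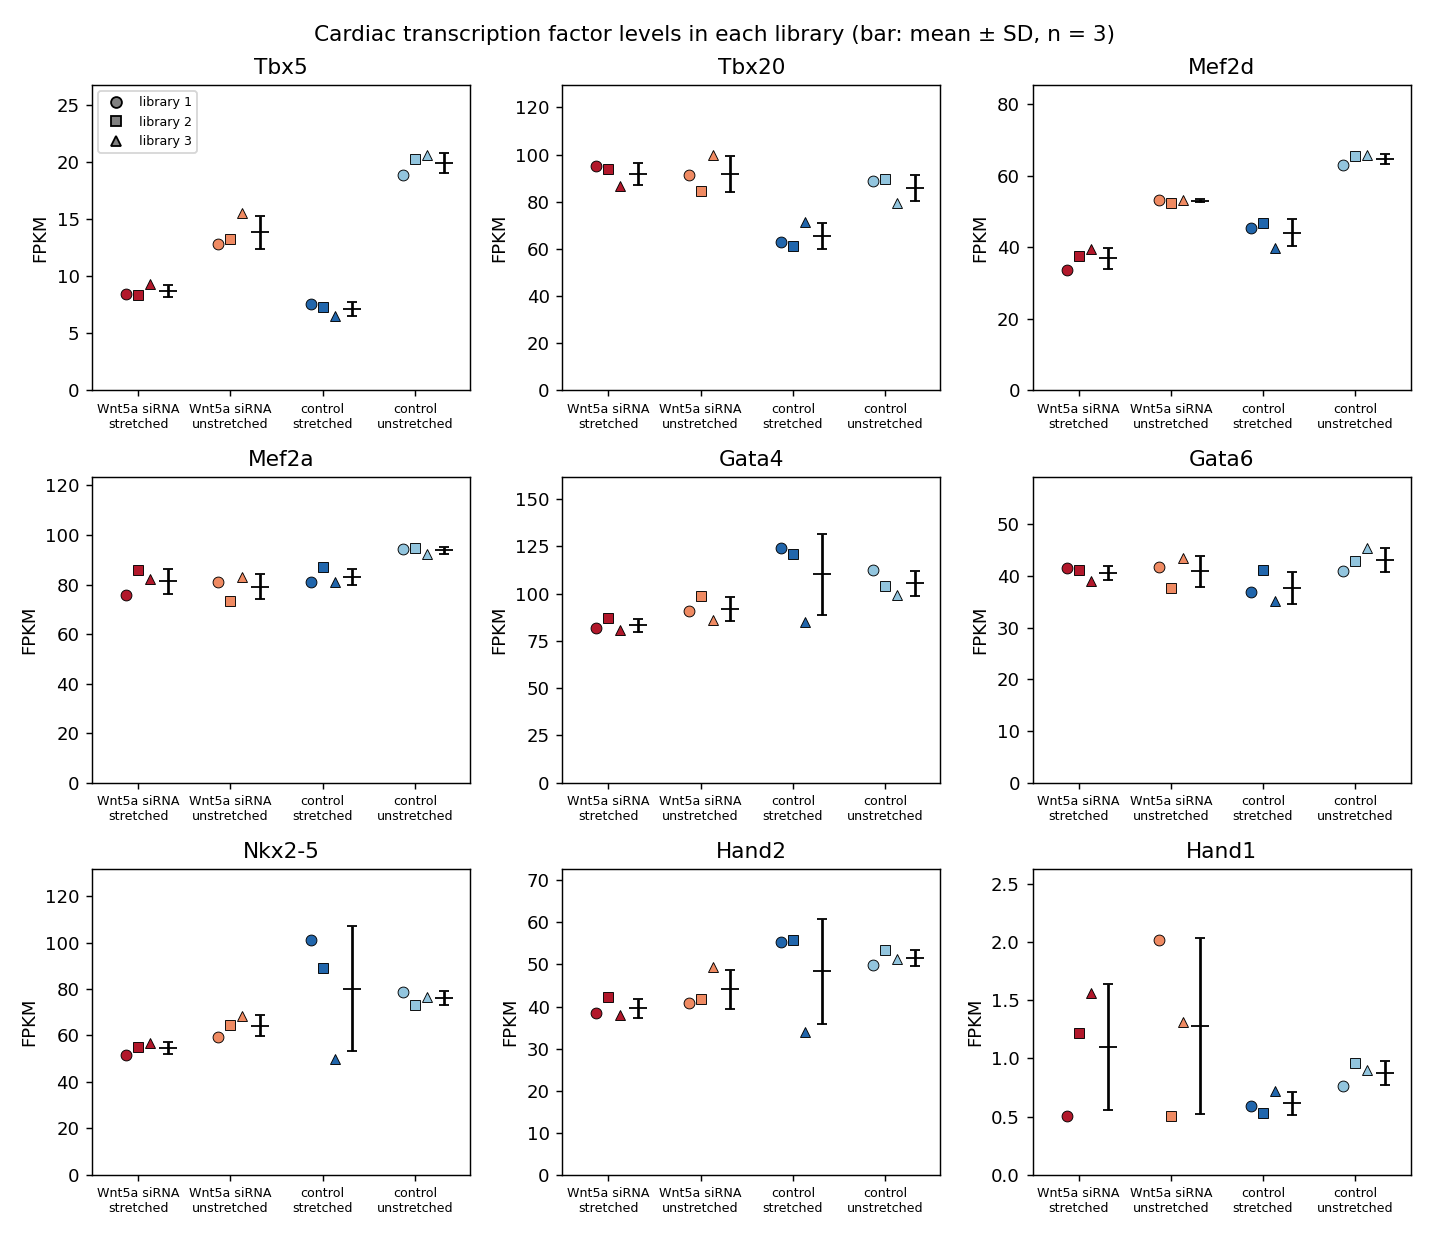
FPKM of the 9 factors in every library by group (points are libraries, bars are means ± SD, n = 3 per group; each panel has its own FPKM axis that starts at 0). Tbx5 is lowest in the stretched control libraries (6.48 to 7.60 FPKM) and highest in the unstretched control libraries (18.9 to 20.6 FPKM), and 1 stretched control library lies below the others of its group for Gata4, Nkx2-5 and Hand2.

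TBX5 is a T-box activator needed for the chambers and the conduction system, and its loss on one allele causes Holt-Oram syndrome in people. Tbx5 was at 7.60, 7.31 and 6.48 FPKM in stretched control libraries, against 18.9, 20.3 and 20.6 FPKM in unstretched control libraries. It fell to 35.8% (−1.36 ± 0.09, adjusted p = 1.3e-06), and the groups did not overlap. With Wnt5a siRNA it was at 8.46, 8.33 and 9.33 FPKM in stretched and 12.8, 13.3 and 15.5 FPKM in unstretched libraries. This fall, to 62.8% (−0.61 ± 0.09, adjusted p = 0.0012), was smaller than that under control siRNA, with an interaction of 0.75 ± 0.13 (95% interval 0.47 to 1.03, adjusted p = 0.0030). Tbx5 was also lower with Wnt5a siRNA in the absence of stretch, at 69.6% of the unstretched control (−0.50 ± 0.09, adjusted p = 0.0026). Under stretch the siRNA difference had the opposite sign: Tbx5 averaged 8.70 ± 0.543 FPKM in stretched Wnt5a siRNA and 7.13 ± 0.581 FPKM in stretched control libraries (SD, n = 3 each), with no overlap. That difference missed the threshold (0.26 ± 0.09, adjusted p = 0.0539), and it passed with TPM scaling (0.35, adjusted p = 0.0213), with a pseudocount of 0.1 (0.0478), with a filter at 5 FPKM (0.0476) and without unstretched Wnt5a siRNA 3 (0.0441). The calls for stretch under both siRNAs, for Wnt5a siRNA without stretch and for the interaction passed in each alternative that was run.

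TBX20 is a T-box factor that represses and activates cardiac genes and is needed to keep adult mouse heart function. It was at 63.1, 61.4 and 71.6 FPKM in stretched control libraries, against 88.6, 89.7 and 79.6 FPKM in unstretched control libraries, a fall to 76.0% (−0.39 ± 0.08, adjusted p = 0.0015) with no overlap. With Wnt5a siRNA its mean was 91.9 ± 4.66 FPKM in stretched and 91.8 ± 7.53 FPKM in unstretched libraries (SD, n = 3 each), and the change was 0.00 ± 0.08 (95% interval −0.17 to 0.18, adjusted p = 0.9887). Stretched Wnt5a siRNA libraries, at 95.2, 93.9 and 86.5 FPKM, all lay above the stretched control libraries (0.49 ± 0.08, 141%, adjusted p = 0.0028). Without stretch Wnt5a siRNA gave 91.3, 84.6 and 99.6 FPKM, which overlapped the unstretched control libraries (0.09 ± 0.08, adjusted p = 0.4210). The interaction was 0.39 ± 0.12 (adjusted p = 0.0278). It missed the threshold without library 1 or library 2 of any of the 4 groups, with adjusted p of 0.0529 to 0.0709, and passed without each library numbered 3. The fall with stretch under control siRNA and the rise with Wnt5a siRNA under stretch passed in each alternative.

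MEF2D and MEF2A are MADS-box factors that drive muscle genes, and MEF2D mediates stress-dependent remodelling in mouse hearts. Mef2d was at 45.5, 46.8 and 39.8 FPKM in stretched control libraries, against 62.9, 65.3 and 65.6 FPKM in unstretched ones, a fall to 68.2% (−0.55 ± 0.07, adjusted p = 7.0e-05). With Wnt5a siRNA it was at 33.7, 37.6 and 39.5 FPKM in stretched libraries, against 53.2, 52.5 and 53.3 FPKM in unstretched ones, a fall to 69.7% (−0.51 ± 0.07, adjusted p = 0.0011). Neither pair of groups overlapped, and both calls passed in each alternative. With Wnt5a siRNA Mef2d was lower, at 83.9% of the control under stretch (−0.25 ± 0.07, adjusted p = 0.0285) and at 82.0% without it (−0.28 ± 0.07, adjusted p = 0.0150). The first of these was lost with TPM scaling (−0.14, adjusted p = 0.2111), with quantile normalization (0.1231) and with only the libraries compared (0.1133). It was also lost without library 1 or 2 of either stretched group (0.0515 to 0.1101). The second was lost without unstretched control 2 (0.0509) or 3 (0.0545). No interaction was called for Mef2d.

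Mef2a was at 81.1, 86.9 and 81.2 FPKM in stretched control libraries, against 94.5, 94.9 and 92.2 FPKM in unstretched ones, 88.5% of their mean (−0.18 ± 0.07, adjusted p = 0.0403). This call passed in 11 of 21 alternatives and was lost without any 1 of unstretched controls 1, 2 and 3 (0.0893, 0.1009, 0.0681), stretched controls 1 and 3 (0.1076, 0.0688), unstretched Wnt5a siRNA 1 (0.0539) and stretched Wnt5a siRNA 3 (0.0524). It was also lost with eBayes without trend (0.0627), with only the libraries compared (0.0635) and with a replicate block (0.0554). In Wnt5a siRNA libraries Mef2a was at 75.6, 85.8 and 82.4 FPKM with stretch and at 80.8, 73.3 and 82.9 FPKM without it, which overlapped (0.04 ± 0.07, adjusted p = 0.7295). Without stretch Wnt5a siRNA libraries lay below the control libraries, at 84.2% (−0.25 ± 0.07, adjusted p = 0.0161), a call lost without unstretched control 2 (0.0539) or unstretched Wnt5a siRNA 2 (0.0689).

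GATA4 and GATA6 are zinc finger factors with overlapping functions in heart muscle, and GATA4 is required for the hypertrophic response to pressure load in mice. Gata4 was at 124, 121 and 85.2 FPKM in stretched control libraries, against 113, 104 and 99.5 FPKM in unstretched ones. Libraries 1 and 2 lay above and library 3 below the unstretched controls, and the change was 0.05 ± 0.12 (adjusted p = 0.7676). Without library 3 it was called higher (0.22, adjusted p = 0.0198). With Wnt5a siRNA, Gata4 was at 81.6, 86.9 and 80.9 FPKM in stretched and 90.6, 98.6 and 86.0 FPKM in unstretched libraries, which overlapped (−0.14 ± 0.12, adjusted p = 0.4635). Gata4 was lower in stretched Wnt5a siRNA than in stretched control libraries (75.5%, −0.38 ± 0.12, adjusted p = 0.0329), although the groups overlapped through library 3. That call passed in 12 of 21 alternatives. It was lost without stretched control 1 (0.1414) or 2 (0.1168) and without stretched Wnt5a siRNA 1 (0.0875), 2 (0.0513) or 3 (0.0998). It was also lost with TPM scaling (−0.27, adjusted p = 0.0750), quantile normalization (0.1019), only the libraries compared (0.1006) and no filter (0.0514). Without stretched control 3 the change was −0.56 (adjusted p = 1.2e-04).

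Gata6 stayed between 35.2 and 45.5 FPKM in all 12 libraries. Its mean was 37.7 ± 3.04 FPKM in stretched and 43.1 ± 2.32 FPKM in unstretched control libraries (SD, n = 3 each; −0.19 ± 0.08, adjusted p = 0.0524). This was called without unstretched control 1 (0.0488), unstretched Wnt5a siRNA 2 (0.0433) or stretched control 2 (0.0187). It was also called with TPM scaling (8.1e-04), quantile normalization (0.0093) and a filter at 5 FPKM (0.0499). With Wnt5a siRNA the means were 40.6 ± 1.31 FPKM in stretched and 40.9 ± 2.99 FPKM in unstretched libraries (−0.01 ± 0.08, adjusted p = 0.9581).

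NKX2-5 is a homeodomain factor that partners with GATA4 and TBX5, and HAND2 is a basic helix-loop-helix factor of the ventricles. Nkx2-5 was at 101, 89.2 and 49.8 FPKM in stretched control libraries, against 78.8, 73.1 and 76.5 FPKM in unstretched ones. The change over all 3 was 0.01 ± 0.19 (95% interval −0.40 to 0.42, adjusted p = 0.9653), and without library 3 it was 0.32 (adjusted p = 0.0038). With Wnt5a siRNA it was at 51.7, 55.1 and 56.9 FPKM in stretched libraries, below the 59.4, 64.6 and 68.5 FPKM of unstretched ones, without passing the test (−0.23 ± 0.19, adjusted p = 0.4438). That difference was called lower in the fit without stretched control 3 (0.0293), which is not part of it and enters through the spread alone, and in the fit of only the libraries compared (0.0437). Stretched Wnt5a siRNA against stretched control gave −0.48 ± 0.19 (adjusted p = 0.0728), and −0.79 (adjusted p = 2.2e-05) without stretched control 3. Hand2 was likewise lowest in library 3, at 55.4, 55.9 and 34.0 FPKM in stretched against 49.8, 53.5 and 51.2 FPKM in unstretched control libraries (−0.12 ± 0.15, adjusted p = 0.5181), and 0.11 (adjusted p = 0.2621) without library 3. With Wnt5a siRNA Hand2 was at 38.6, 42.2 and 38.1 FPKM in stretched and 40.9, 41.9 and 49.4 FPKM in unstretched libraries (−0.15 ± 0.15, adjusted p = 0.5555). Against stretched control libraries the change with Wnt5a siRNA was −0.25 ± 0.15 (adjusted p = 0.2326), and −0.48 (adjusted p = 6.4e-04) without library 3. Hand1, a relative of Hand2 that marks the left ventricle in mouse embryos, stayed between 0.504 and 2.02 FPKM and was called in no comparison.

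In stretched control library 3, Nkx2-5, Hand2 and Gata4 were at 52.3%, 61.1% and 69.5% of the mean of libraries 1 and 2, and Mef2a, Gata6, Tbx5 and Mef2d were at 86.3% to 96.7%. Tbx20 was at 115%. In the same library 10 of 11 cardiomyocyte markers were below that mean (median 71.1%), while the 11 fibroblast markers were at 115.2% to 270.6% and the 9 listed macrophage markers at 120.6% to 209.2%. The part of these markers in the levels of the factors was not tested. Without this library the common estimate of the spread is smaller, and Gata4, Nkx2-5 and Hand2 were then also called lower in unstretched Wnt5a siRNA than in unstretched control libraries (adjusted p of 0.0283, 0.0151 and 0.0281), a comparison that does not hold it. The interaction was then called, as negative, for Gata4 (−0.36, adjusted p = 0.0134) and Nkx2-5 (−0.55, adjusted p = 0.0023). Of all 10518 genes, 1935 were then called lower for Wnt5a siRNA without stretch, against 1466 with the library. A negative interaction was then called for 1905 of all genes, against 1277 with it.

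**Figure D3:**
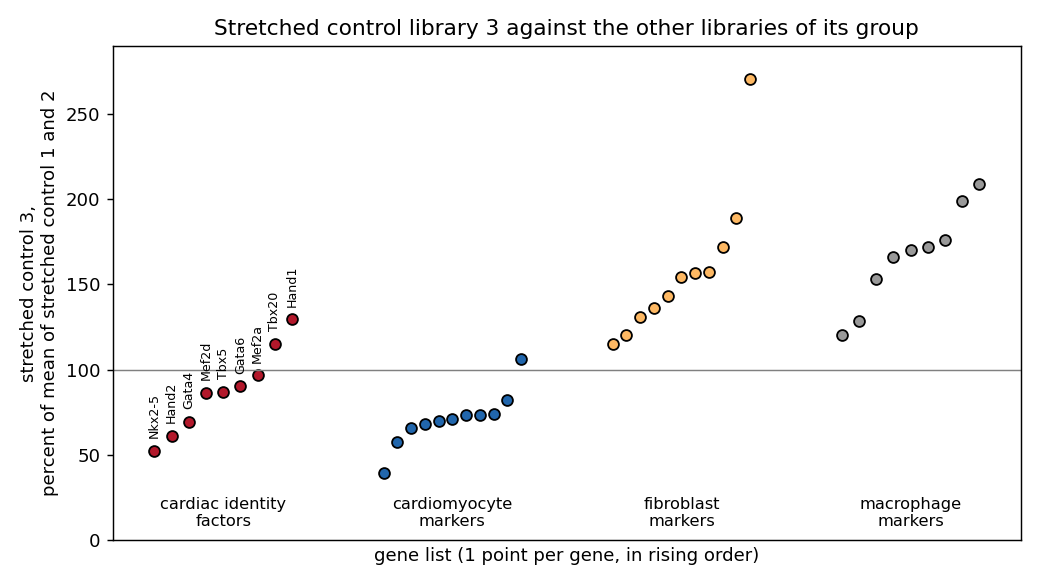
Level in stretched control library 3 as a percent of the mean of stretched control libraries 1 and 2 for the 9 factors, 11 cardiomyocyte, 11 fibroblast and 9 macrophage markers (1 point per gene, ordered within each list; the line is 100%). Nkx2-5, Hand2 and Gata4 lie lowest among the factors, at 52.3% to 69.5%, and all fibroblast and macrophage markers lie above the line.

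Ratios of related factors within a library are nearly free of the scale of that library. The ratio of Tbx20 to Tbx5 was 10.6 ± 1.15 in stretched and 6.64 ± 0.426 in unstretched Wnt5a siRNA libraries, and 9.25 ± 1.56 in stretched and 4.33 ± 0.417 in unstretched control libraries (SD, n = 3 each). Averaged over both siRNAs, the log2 ratio of (FPKM + 1) was higher by 0.79 with stretch. Averaged over both stretch states, it was higher by 0.41 with Wnt5a siRNA. The adjusted p was 0.015 and 0.02 (exact stratified permutation test, 2-sided, with 0.005 as the smallest unadjusted p it can give, adjusted over 6 tests). Differences of the other ratios by this test are averages of the same kind. Without stretch all Wnt5a siRNA libraries lay above the control libraries in the Tbx20 to Tbx5 ratio, whereas under stretch the groups overlapped. Without stretched control 1 or 2 the adjusted p of the difference of this ratio with Wnt5a siRNA was 0.05, which is not under the threshold. The ratio of Mef2d to Mef2a was 0.455 ± 0.022 in stretched and 0.672 ± 0.038 in unstretched Wnt5a siRNA libraries, and 0.530 ± 0.036 in stretched and 0.688 ± 0.023 in unstretched control libraries. It fell with stretch (−0.46, adjusted p = 0.015 by the same exact test), whereas its difference with Wnt5a siRNA missed the threshold (−0.12, adjusted p = 0.054) and passed without unstretched Wnt5a siRNA 2 (0.0150). The ratio of Gata6 to Gata4 was 0.489 ± 0.018 in stretched and 0.449 ± 0.063 in unstretched Wnt5a siRNA libraries, and 0.350 ± 0.059 in stretched and 0.411 ± 0.047 in unstretched control libraries. It was higher with Wnt5a siRNA (0.31, adjusted p = 0.045 by the exact test), a call that was lost without any 1 of 9 libraries (0.0525 to 0.0975), namely each stretched Wnt5a siRNA library, unstretched Wnt5a siRNA 1 and 3, stretched controls 1 and 2 and unstretched controls 1 and 2. Averaged over both siRNAs, the difference with stretch was −0.05 (adjusted p = 0.655, exact test). The mean ratio was lower with stretch under control siRNA and higher under Wnt5a siRNA, with overlapping libraries in both cases.

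**Figure D4:**
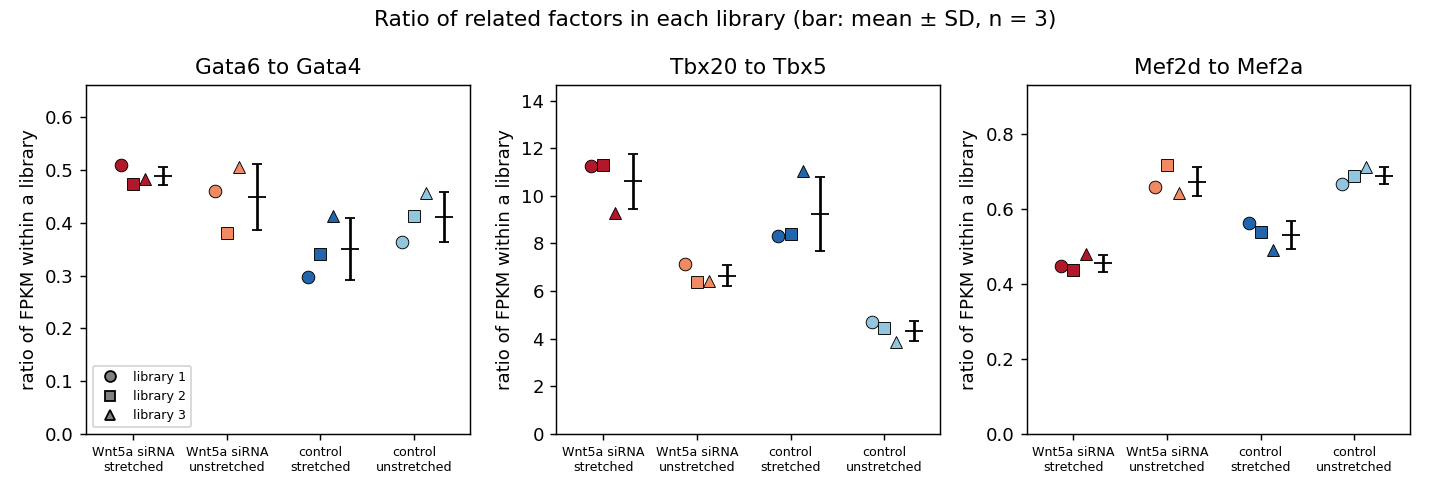
Ratio of FPKM within each library (points) for Gata6 to Gata4, Tbx20 to Tbx5 and Mef2d to Mef2a by group, with bars for the mean ± SD (n = 3) and axes that start at 0. The Tbx20 to Tbx5 ratio is highest in both stretched groups, and the Mef2d to Mef2a ratio is lowest there.

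Among the genes of a mean of at least 5 FPKM, those whose profile over the 12 libraries was most like that of each factor called for stretch with control siRNA were found by the root mean square difference of centred log2 values. For Tbx5 they were Adrb1, the beta-1 adrenergic receptor (0.10), and Pla2g4b (0.12), against a median of 0.58 over 8186 genes. Adrb1 changed by −1.35 with stretch under control siRNA and by −0.72 under Wnt5a siRNA. For Tbx20 they were Elmod2 (0.09) and Tbc1d14 (0.10), against a median of 0.31, with changes of −0.37 and −0.30 under control siRNA and of 0.09 and −0.02 under Wnt5a siRNA. For Mef2d they were Synj2 and Ogdh (0.06 each, median 0.36), and for Mef2a Zmynd11 and Uhrf2 (0.05 each, median 0.23). These are descriptions over 12 libraries that share the same groups.

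Co-regulators and partners of these factors formed a list of 30 genes, of which 24 were tested. With stretch under control siRNA 8 of 24 were called lower and none higher (median −0.13, against 0.01 over all genes), where 26.8% of all genes were called lower. Without stretched control 3, 10 were called lower and 1 higher, where 2960 of all 10518 genes were called lower and 3075 higher. With TPM scaling 19 of 24 were called lower, against 4493 of all 10518 genes. Hdac9, a class IIa histone deacetylase that represses MEF2 proteins, was at 2.92, 3.13 and 4.23 FPKM in stretched control libraries, against 9.11, 11 and 10.9 FPKM in unstretched ones (−1.36, adjusted p = 4.9e-06). With Wnt5a siRNA it was at 4.66, 5.25 and 5.44 FPKM in stretched and 6.45, 7.48 and 7.80 FPKM in unstretched libraries, and the interaction was 0.93 (adjusted p = 0.0044). Hdac5, of the same class, averaged 41.1 ± 4.44 FPKM in stretched and 62.5 ± 1.18 FPKM in unstretched control libraries (SD, n = 3 each; −0.60, adjusted p = 5.6e-05), and was lower with Wnt5a siRNA without stretch (44.1 ± 1.88 FPKM, −0.50, adjusted p = 0.0013). Prkd1, a kinase that phosphorylates these deacetylases, fell with stretch under control siRNA (−0.61, adjusted p = 2.2e-04), as did Camk2d, the main cardiac calmodulin-dependent kinase (−0.26, adjusted p = 0.0042). With stretch under Wnt5a siRNA 2 of 24 were called lower and none higher, against 7.59% of all genes called lower. Tead1, the DNA-binding partner of YAP, was 1 of the 2 (−0.46, adjusted p = 0.0043). Without stretched control 3, which enters through the spread alone, 6 were lower and 1 higher, against 1296 and 1329 of all 10518 genes. With TPM scaling 7 were lower, against 1776 of all genes. With Wnt5a siRNA under stretch 5 were called higher and 4 lower, against 13.2% and 14.2% of all genes. The counts were 8 and 2 with TPM scaling (2187 and 811 of all genes), and 8 and 6 without stretched control 3 (2288 and 2380). Hopx, a homeodomain protein that inhibits SRF, was at 33.2, 28.0 and 36.4 FPKM in stretched Wnt5a siRNA against 11.6, 11.7 and 16.4 FPKM in stretched control libraries (1.25, adjusted p = 0.0035).

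Other cardiac transcription factors formed a list of 35 genes, of which 24 were tested. With stretch under control siRNA 11 of 24 were called lower and 1 higher (median −0.30), against 26.8% of all genes called lower. Irx4, the Iroquois factor of the ventricle, was at 8.45, 9.67 and 9.96 FPKM in stretched control libraries, against 36.9, 38.7 and 42.5 FPKM in unstretched ones (−1.96, adjusted p = 3.4e-06). With Wnt5a siRNA it was at 22.4, 20.5 and 26.8 FPKM in stretched and 36.9, 26.5 and 47.1 FPKM in unstretched libraries. Stretched Wnt5a siRNA libraries were thus all above the stretched control libraries (1.22, adjusted p = 0.0016), and the interaction was 1.35 (adjusted p = 0.0030). Gata5, the third GATA factor of the heart, averaged 15.4 ± 1.20 FPKM in stretched and 26.7 ± 1.34 FPKM in unstretched control libraries (−0.76, adjusted p = 1.7e-05). Irx3 (−1.07, adjusted p = 2.0e-05) and Irx5 (−0.87, adjusted p = 2.6e-05) also fell in this comparison. With stretch under Wnt5a siRNA 6 of 24 were called lower and 1 higher, against 7.59% of all genes called lower. With TPM scaling 7 were lower and 1 higher, against 1776 and 502 of all 10518 genes. Without stretched control 3, which enters through the spread alone, 6 were lower and 2 higher, against 1296 and 1329. With Wnt5a siRNA under stretch 3 were called higher and 1 lower, against 13.2% and 14.2% of all genes. The counts were 6 and 1 with TPM scaling (2187 and 811 of all genes), and 5 and 1 without stretched control 3 (2288 and 2380).

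Known target genes of the factors formed a list of 36, of which 34 were tested, and they moved in both directions. With stretch under control siRNA 11 were called higher and 15 lower (median −0.44), where 2889 of all 10518 genes were called higher and 2822 lower. The counts were 6 and 18 with TPM scaling (1451 and 4493 of all genes), and 14 and 15 without stretched control 3 (3075 and 2960). Smyd1, a muscle methyltransferase, was at 51.0, 61.4 and 52.6 FPKM in stretched control libraries, against 125.7, 131 and 149 FPKM in unstretched ones (−1.28, adjusted p = 4.1e-06). Ppargc1a, a coactivator of mitochondrial genes, was at 8.34, 11.2 and 10.3 FPKM in stretched and 24.4, 26.2 and 27.1 FPKM in unstretched control libraries (−1.31, adjusted p = 8.1e-06). Gja5, which encodes connexin 40 and is a TBX5 target in mice, was chosen after its values were seen, as was Nppa for this comparison: Gja5 averaged 63.3 ± 5.26 FPKM in stretched and 101.5 ± 5.33 FPKM in unstretched control libraries (−0.67, adjusted p = 1.8e-04). Nppa, also a TBX5 and GATA4 target, was higher, at 7829, 5749 and 10954 FPKM in stretched against 1817, 1252 and 1415 FPKM in unstretched control libraries (2.42, adjusted p = 1.1e-04), while Tbx5 was lower there. With stretch under Wnt5a siRNA 798 of all 10518 genes were called lower (1296 without stretched control 3). Of the 34 targets none was called higher and 9 were called lower (14 without stretched control 3). These included Corin, the protease that activates the Nppa product, at 1.86, 2.37 and 2.74 FPKM in stretched against 9.07, 14.2 and 6.44 FPKM in unstretched Wnt5a siRNA libraries (−1.66, adjusted p = 7.2e-04).

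With Wnt5a siRNA under stretch 3 of 34 targets were called higher and 14 lower, against 13.2% and 14.2% of all genes. Without stretched control 3 the counts were 5 and 23, where 2288 and 2380 of all 10518 genes were called. Without stretch 3 targets were called higher and 15 lower, against 1536 and 1466 of all genes. Gja1, which encodes connexin 43, was at 159, 181 and 172 FPKM in stretched Wnt5a siRNA and 348, 386 and 259 FPKM in stretched control libraries (−0.93, adjusted p = 0.0016). Without stretch it was at 186, 173 and 203 FPKM with Wnt5a siRNA, against 484, 529 and 518 FPKM with control siRNA (−1.44, adjusted p = 4.3e-05). Des, the intermediate filament desmin, was lower with Wnt5a siRNA under stretch (−1.20, adjusted p = 0.0016). In these comparisons some cardiomyocyte markers were also lower: 4 of 11 were called lower and none higher under stretch (8 lower without stretched control 3; summed level 22408 to 31093 against 32128 to 46557 FPKM), and 4 lower and 1 higher without stretch (7 and 1 without stretched control 3; 23484 to 28145 against 32377 to 35151 FPKM). Fibroblast markers summed to 8870 to 9490 against 4852 to 8407 FPKM under stretch and to 5277 to 5562 against 3510 to 4017 FPKM without it. Of 11 fibroblast markers, 6 were called higher and none lower under stretch. Without stretch 4 were called higher and 1 lower, namely Dcn, at 46.3% of the unstretched control. The part of these markers in the changes of the targets was not tested.

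**Figure D5:**
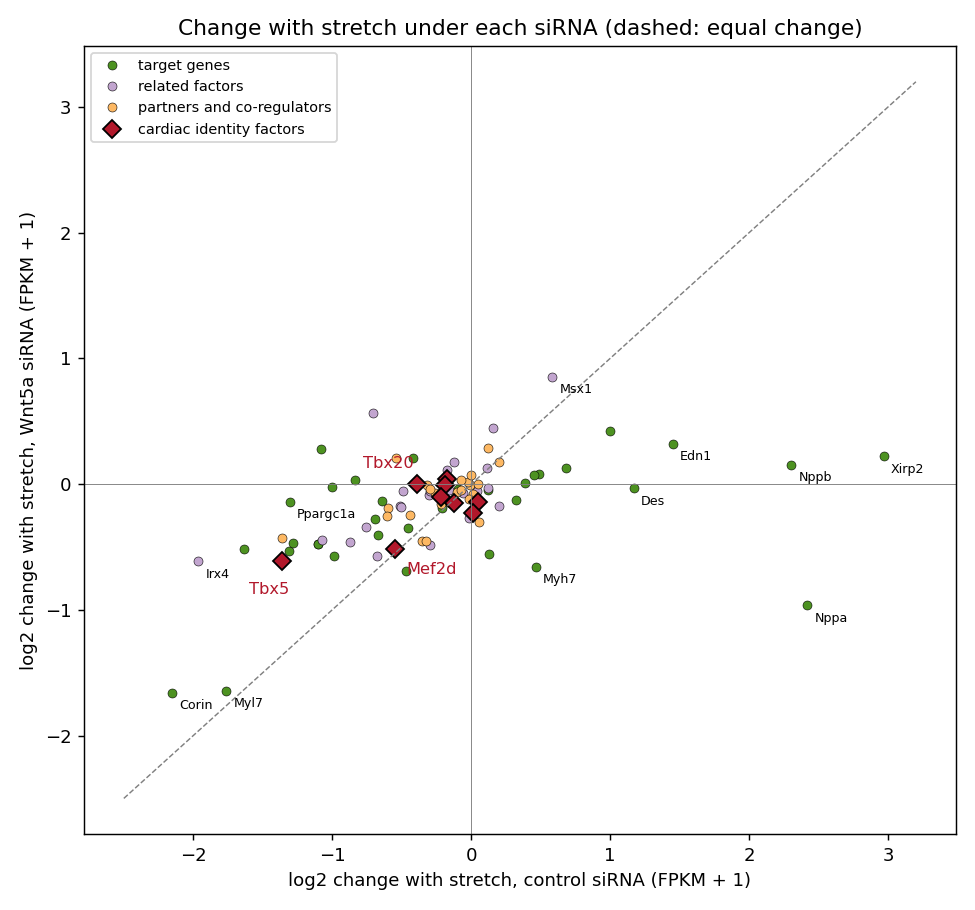
Log2 change of (FPKM + 1) with stretch under Wnt5a siRNA (vertical axis) against that under control siRNA (horizontal axis) for the 9 factors (diamonds) and the tested partners, related factors and target genes (points, 1 per gene); the dashed line marks equal changes. Mef2d lies near the line (−0.55 and −0.51), and Tbx5, Irx4 and Ppargc1a lie above it.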

How the data were processed

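Total RNA was extracted with the miRNeasy Mini Kit and made into libraries with the TruSeq Stranded mRNA kit, per the labels' protocols. Per the submitters' processing notes, reads were processed on the build rn6 with Bowtie2, TopHat2 2.1.1 and Cuffdiff 2.2.1. The deposited values are the authors' FPKM per gene symbol. The annotation, strand use, scaling between libraries and handling of multi-mapping reads were not given in the sources used here, so overlapping genes and close copies are uncertain. The depth is unknown. An FPKM of 0 can be a failed estimate.

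Values were transformed to log2(FPKM + 1), which understates changes of low genes. Genes at 1 FPKM or more in at least 3 libraries were fitted with limma 3.58.1 in R 4.3.3 as 4 group means over all 12 libraries (8 residual degrees of freedom, eBayes with trend, 2-sided tests, Benjamini-Hochberg adjustment within each comparison). The fit was tested on simulated data. Ratios of related factors were tested by exact permutation within strata, for pairs at 1 FPKM or more in every library.

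The members and lists were chosen with earlier results of these data known. From each list, the called genes with the lowest adjusted p were eligible for naming, 4 for stretch with control siRNA and 2 for any other comparison. The text names fewer, plus Gja5 and, for stretch with control siRNA, Nppa, and some eligible results are not reported here. Alternatives were a pseudocount of 0.1, no filter, a filter at 5 FPKM, median ratio, TPM and quantile scaling, eBayes without trend, a replicate block, only the libraries compared, and leaving out each library. Same-numbered stretched and unstretched Wnt5a siRNA libraries deviated together to a small degree (correlations 0.184, 0.242 and 0.143). The main fit did not pair them, and the replicate block was an alternative only. In the other comparisons not every pair exceeded 0.1.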

Additional observations from a re-analysis of the deposited data

Results flagged for a closer look

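For 15 of the genes tested singly, limma called the interaction of stretch and siRNA, the reason they are given here. Values are on the log2 scale, stretch under Wnt5a siRNA minus stretch under control siRNA. The interaction was called for 23.8% of all 10518 genes tested. Some of the 15 were eligible for naming through their low adjusted p in this same test, so their number is not a result. Among the factors these were Tbx5 (0.75, adjusted p = 0.0030) and Tbx20 (0.39, adjusted p = 0.0278, 0.0060 to 0.0709 over 20 alternatives). Wnt5a itself had 0.70 (adjusted p = 0.0244, up to 0.0559).

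Among partners and related factors Hdac9 had 0.93 (adjusted p = 0.0044) and Irx4 1.35 (0.0030), which passed in each of 20 alternatives. Hdac5 had 0.41 (0.0211) and was lost in 2 of 20 alternatives (up to 0.0569), Irx3 had 0.63 (0.0214) and was lost in 4 (up to 0.0552), and Gata5 had 0.41 (0.0263) and was lost in 6 (up to 0.0705).

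Among target genes Ppargc1a had 1.16 (adjusted p = 0.0022) and Smyd1 0.81 (0.0050), while Des had −1.20 (0.0047), Myh7 −1.12 (0.0026), Xirp2 −2.75 (0.0014) and Nppa −3.38 (0.0017), and these passed in each alternative. Gja1 had 0.51 (0.0484) and was lost in 12 of 20 (up to 0.1117).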

How the results depend on the processing

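Over the 9 factors and 5 comparisons, 931 alternative values were computed: 870 kept their side of the threshold, 38 lost a call, 23 gained one and none reversed a call. Among the 870, 39 differed in sign with a call in neither. For stretch with control siRNA the count of 4 ran from 3 to 5, and the 5 without stretched control 3 were 2 higher and 3 lower. With Wnt5a siRNA under stretch, 3 factors were called, against 2 with TPM scaling, 1 with quantile normalization, 1 with only the libraries compared, and 1 to 5 when single libraries were left out. The 5 arose without stretched control 3. Without stretch the count of 3 ran from 1 (without unstretched control 2) to 6 (without stretched control 3). The 2 interactions ran from 1 to 4, and 4 was reached without stretched control 3. The 4 ratio calls went down to 2. Without unstretched Wnt5a siRNA 2 they all held, and Mef2d to Mef2a with Wnt5a siRNA was added. Without stretched control 3 more of all genes tested were called as well. For Wnt5a siRNA under stretch 2288 were higher and 2380 lower, against 1386 and 1489. For stretch with Wnt5a siRNA the counts were 1329 and 1296, against 888 and 798. For Wnt5a siRNA without stretch they were 2000 and 1935, against 1536 and 1466, and for the interaction 1733 and 1905, against 1226 and 1277. Fewer samples and a smaller spread enter that fit. With the replicate number as a block 44 of 45 factor results kept their call, and Mef2a missed the threshold for stretch with control siRNA (adjusted p = 0.0554). For stretch with Wnt5a siRNA, where same-numbered libraries deviated together, the block changed no call of a factor. Other causes of these differences were not tested. With 3 libraries a group and unknown depth, small changes and Hand1, near 1 FPKM, were not resolved.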
